A study of Mus musculus with 6 samples.

Results

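Genes better known from other cell lineages had among the largest positive differences between CTLA-4 KO and wild type T cells, and 6 of them are described here, Cd22, Cebpa, Plagl1, Dnase1l3, Cnga1 and Plxdc1. They were chosen because their difference between these same arrays was large and positive, so their values below are a description and no test is drawn from them. They are 6 of 18194 genes that the array annotation names through probe sets of a single gene, and 11 of 45101 probe sets read 1 of the 6 alone. The RNA came from 5C.C7 T cells, all of which bear the same transgenic antigen receptor, specific for an MCC (moth cytochrome c) peptide, and was read on Affymetrix arrays. Both kinds of donor lacked RAG2 and carried the CD45.1 marker: CTLA-4 KO donors were also CTLA-4-/-, and wild type donors had an intact Ctla4, the gene of an inhibitory receptor of activated T cells. Cells of either donor were moved into B10.A mice, which received MCC peptide with LPS, and were sorted on day 4, with 3 arrays for each genotype. Donors without RAG2 make no mature B cells, but the B10.A hosts have B cells, myeloid cells and vessels of their own. The labels do not say by which marker the cells were sorted, how old the mice were or whether animals were pooled.

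As a check of the labels, Ctla4 had intensities of 811.7, 790.6 and 784.1 in CTLA-4 KO arrays 1, 2 and 3, against 5332, 4787 and 4587 in wild type arrays 1, 2 and 3 (log2 difference −2.60 ± 0.10 SE, limma adjusted p = 1.45e-06). T cell identity genes were bright in both genotypes: Cd3e, a subunit of the receptor complex, had 4410 ± 223 in CTLA-4 KO and 3907 ± 461 in wild type (SD, n = 3 arrays each), and Cd4 had 5473 ± 461 and 5148 ± 241 in the same order of genotypes. The arrays numbered 2 had high Xist in both genotypes, at 11710 in CTLA-4 KO and 12250 in wild type, and the other arrays had at most 12.13, while the Y-linked Eif2s3y was low in arrays 2 (71.63 and 95.07) and high in the others (5064 to 5698). Arrays 2 thus carry a female pattern and arrays 1 and 3 a male one. The ratio of 5' to 3' Actb signal, a sign of RNA integrity, was 0.567, 0.691 and 0.544 in CTLA-4 KO arrays 1 to 3 and 0.418, 0.41 and 0.584 in wild type arrays 1 to 3. In these bulk samples a gene that is higher in all cells and one that is high in a few cannot be told apart, and with so few arrays the precision of each value is limited.

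As background, the 6 genes are best known for different functions. Cd22 encodes a B cell surface receptor that binds sialic acids and whose cytoplasmic tail recruits the phosphatase SHP-1 and dampens antigen receptor signals. Cebpa encodes a transcription factor needed for granulocyte development, and Plagl1 a zinc finger factor that is expressed from the paternal allele in many tissues. Dnase1l3 encodes a secreted endonuclease, made mostly by macrophages and dendritic cells, that digests chromatin in the circulation. Cnga1 encodes the alpha subunit of the cyclic GMP-gated channel of rod photoreceptors, and Plxdc1 a membrane protein known as tumour endothelial marker 7.

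RefSeq's table of sequences around gene starts, from 250 bases before the start to 50 after it (GRCm38.p6), held 4 of the 6 genes, and these are shown so that the start regions of genes with a shared direction can be compared. Capitals mark CG dinucleotides, the sites of DNA methylation. The windows are chr7:30878979-30879278 on the minus strand for Cd22, chr7:35119043-35119342 on the plus strand for Cebpa, chr10:13090582-13090881 on the plus strand for Plagl1 and chr5:72642703-72643002 on the minus strand for Cnga1.
Cd22: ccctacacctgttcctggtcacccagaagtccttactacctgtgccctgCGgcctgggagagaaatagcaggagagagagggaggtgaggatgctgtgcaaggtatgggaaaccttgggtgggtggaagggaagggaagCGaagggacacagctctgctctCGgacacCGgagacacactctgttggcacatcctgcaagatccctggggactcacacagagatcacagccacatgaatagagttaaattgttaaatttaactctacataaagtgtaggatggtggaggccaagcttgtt
Cebpa: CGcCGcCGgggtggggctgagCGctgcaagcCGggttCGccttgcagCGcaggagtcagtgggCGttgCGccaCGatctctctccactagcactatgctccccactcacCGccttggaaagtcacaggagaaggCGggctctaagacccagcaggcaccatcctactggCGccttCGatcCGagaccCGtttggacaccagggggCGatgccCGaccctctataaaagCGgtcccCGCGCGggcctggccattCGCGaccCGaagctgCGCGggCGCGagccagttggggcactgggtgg
Plagl1: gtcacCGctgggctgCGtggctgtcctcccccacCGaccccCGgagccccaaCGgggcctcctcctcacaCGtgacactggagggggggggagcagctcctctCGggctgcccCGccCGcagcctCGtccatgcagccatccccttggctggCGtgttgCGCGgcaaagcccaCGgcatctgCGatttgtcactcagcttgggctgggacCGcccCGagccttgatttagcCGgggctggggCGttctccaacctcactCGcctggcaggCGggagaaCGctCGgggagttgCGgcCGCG
Cnga1: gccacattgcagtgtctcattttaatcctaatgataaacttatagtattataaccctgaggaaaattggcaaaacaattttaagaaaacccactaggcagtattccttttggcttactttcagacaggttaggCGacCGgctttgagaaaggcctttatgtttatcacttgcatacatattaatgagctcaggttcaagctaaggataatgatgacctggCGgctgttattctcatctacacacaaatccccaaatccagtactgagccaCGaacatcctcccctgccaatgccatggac
The windows fall into a CG-rich and a CG-poor kind. Cebpa held 29 CG dinucleotides and Plagl1 held 26, more than 87.1% and 83.1% of the 32851 windows in the table. Cd22 and Cnga1 held 4 each, more than 31.4% of windows, where the median over all windows was 7. Motifs were searched on both strands. TTGCNNAA, a form of the C/EBP motif, was found in none of the 4 windows and in 10.8% of all windows, and TGANTCA, the AP-1 motif that BATF and JUN bind, in none of the 4 and in 7.81% of all. GGAAA, the core of NFAT sites, was found once each in Cd22, Cebpa and Cnga1, starting 143, 135 and 191 bases before the gene's start, and not in Plagl1, and 61.3% of all windows hold it. With matches to GGAAA alone, no motifs overlapped, and a match or its absence in this window is a description of sequence alone.

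Each gene was first read through its brightest probe set. Values are linear MAS5 intensities as deposited, and each difference subtracts wild type from CTLA-4 KO on the log2(intensity + 16) scale, with the SE of a limma fit over 27022 probe sets. As a gauge of background, 62 probe sets of 36 genes restricted to other tissues, such as liver, pancreas, heart and testis, had medians of 11 to 18.9 in CTLA-4 KO arrays and 11.7 to 24.8 in wild type arrays. The 90th percentile of these probe sets was 54.5 to 83.6 in CTLA-4 KO arrays and 62.2 to 95.5 in wild type arrays, and it is used below as a bar for signal over background. Afp, the alpha-fetoprotein gene, was the brightest of them, reaching 1469 in CTLA-4 KO and 1336 in wild type. Some of these probe sets lie over the bar by construction, so a value above it does not by itself show expression.

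Cd22 had 694.8, 916.2 and 1050 in CTLA-4 KO arrays 1, 2 and 3, against 177.7, 204.0 and 260.8 in wild type arrays 1, 2 and 3. All arrays of both genotypes lay above the bar, and the lowest CTLA-4 KO array was 2.66 times the highest wild type array. The log2 difference was 1.97 ± 0.19, and the genotypes' means were 887 ± 179 in CTLA-4 KO and 214.2 ± 42.5 in wild type (SD, n = 3 arrays each), a ratio of 4.14. It is the member whose replicate pairs were closest, at 1.88, 2.08 and 1.95 in pairs 1, 2 and 3. The second Cd22 probe set, 1419769_at, was much dimmer but ordered the arrays by genotype as well, with 44.2, 63.7 and 60.3 in CTLA-4 KO and 10.1, 13.8 and 4.73 in wild type. Only 1 of these 6 values, that of CTLA-4 KO array 2, was above the bar, and the probe set fell below the filter on dim signals.

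Cebpa had 341.6, 342.8 and 349.2 in CTLA-4 KO arrays 1, 2 and 3, against 46.3, 101 and 63.1 in wild type arrays 1, 2 and 3. The CTLA-4 KO arrays were nearly equal, with a coefficient of variation of 1.19%, while the wild type arrays averaged 70.1 ± 28.0 (SD, n = 3) and 1 of them, array 2, lay above the bar. The log2 difference was 2.12 ± 0.24, and 1 probe set reads the gene. Plagl1 had 258, 316.3 and 473.1 in CTLA-4 KO arrays 1, 2 and 3 through the probe set 1426208_x_at, against 43.1, 106.5 and 70.5 in wild type arrays 1, 2 and 3, a log2 difference of 2.05 ± 0.30. Again all CTLA-4 KO arrays and wild type array 2 alone lay above the bar. The suffix of this probe set marks probes that can also bind other transcripts, and the other Plagl1 probe sets did not show the difference. The probe set 1438588_at had 11, 5.44 and 39.6 in CTLA-4 KO and 5.28, 30.2 and 7.72 in wild type. The probe set 1450533_a_at had 1.19 to 2.86 in CTLA-4 KO and 1.28 to 2.83 in wild type, so both were at background in every array. Which transcripts the brighter probe set reads was not tested.

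Dnase1l3 had 75.9, 190.3 and 153 in CTLA-4 KO arrays 1, 2 and 3, against 2.84, 2.50 and 9.45 in wild type arrays 1, 2 and 3. This is the only member that lay far under the bar in all wild type arrays, at percentiles 4.1 to 17 of its array, and over it in all CTLA-4 KO arrays, at percentiles 52.8 to 64.5. The log2 difference was 2.83 ± 0.34, but its size rests on the added 16, since it was 4.66 with 1 added and 1.52 with 64 added. No ratio of means is given for this reason. The other probe set, 1421056_at, was under the bar everywhere, with 3.79, 13.3 and 26.4 in CTLA-4 KO and 3.45, 2.47 and 4.19 in wild type, and CTLA-4 KO array 1 fell within the wild type range.

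Cnga1 had 168.9, 195.1 and 283.1 in CTLA-4 KO arrays 1, 2 and 3, against 26.7, 99.9 and 19.5 in wild type arrays 1, 2 and 3. The genotypes did not overlap, but wild type array 2 stood far above the other wild type arrays, the lowest CTLA-4 KO array was 1.69 times that array, and the log2 difference of 2.02 carried the largest SE of the 6, at 0.40. Plxdc1 had 335.9, 393.8 and 298.5 in CTLA-4 KO arrays 1, 2 and 3, against 90.6, 76.8 and 88.9 in wild type arrays 1, 2 and 3. Both groups were tight, at 342.7 ± 48.0 in CTLA-4 KO and 85.4 ± 7.51 in wild type (SD, n = 3 arrays each), with a log2 difference of 1.82 ± 0.19. The second Plxdc1 probe set, 1442610_at, overlapped fully, at 67.6, 83.2 and 79.3 in CTLA-4 KO and 59.4, 14.9 and 108.4 in wild type, and its log2 difference was 0.48 ± 0.43. When the kept probe sets of a gene were averaged, the Plxdc1 difference was 1.15.

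**Figure D1:**
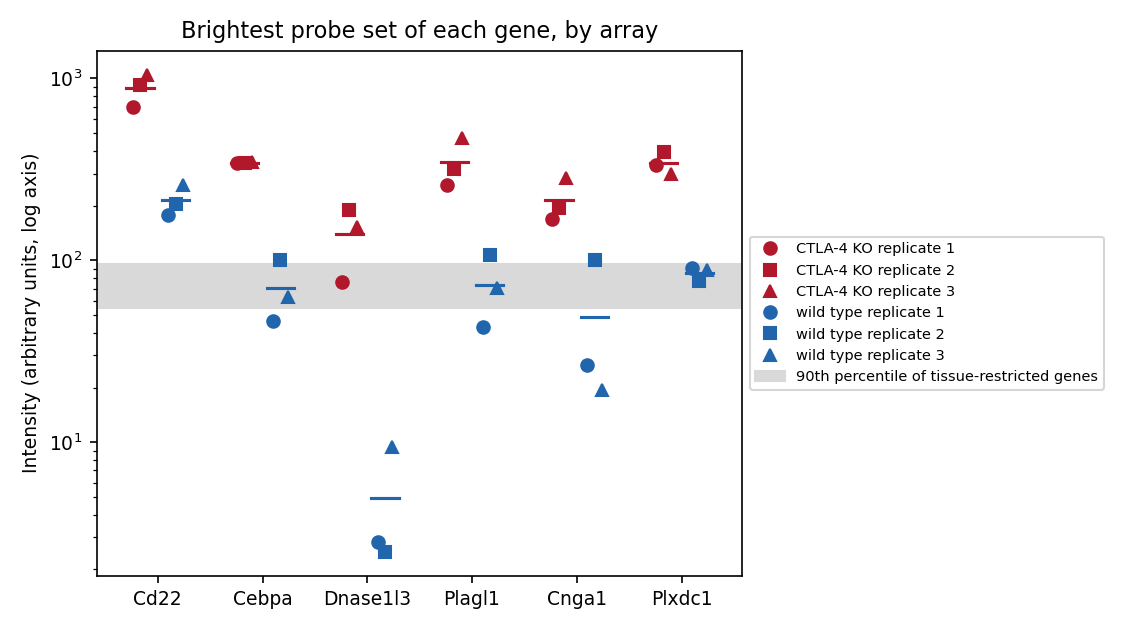
Intensity on a log axis of the brightest probe set of each of the 6 genes in the 3 CTLA-4 KO arrays (red) and the 3 wild type arrays (blue), with marker shape for the replicate number, a bar at each mean, and a grey band for the 90th percentile of tissue-restricted genes over the arrays (54.5 to 95.5). All CTLA-4 KO points lie above all wild type points of the same gene, and wild type Dnase1l3 lies far below the band at 2.50 to 9.45.

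**Figure D2:**
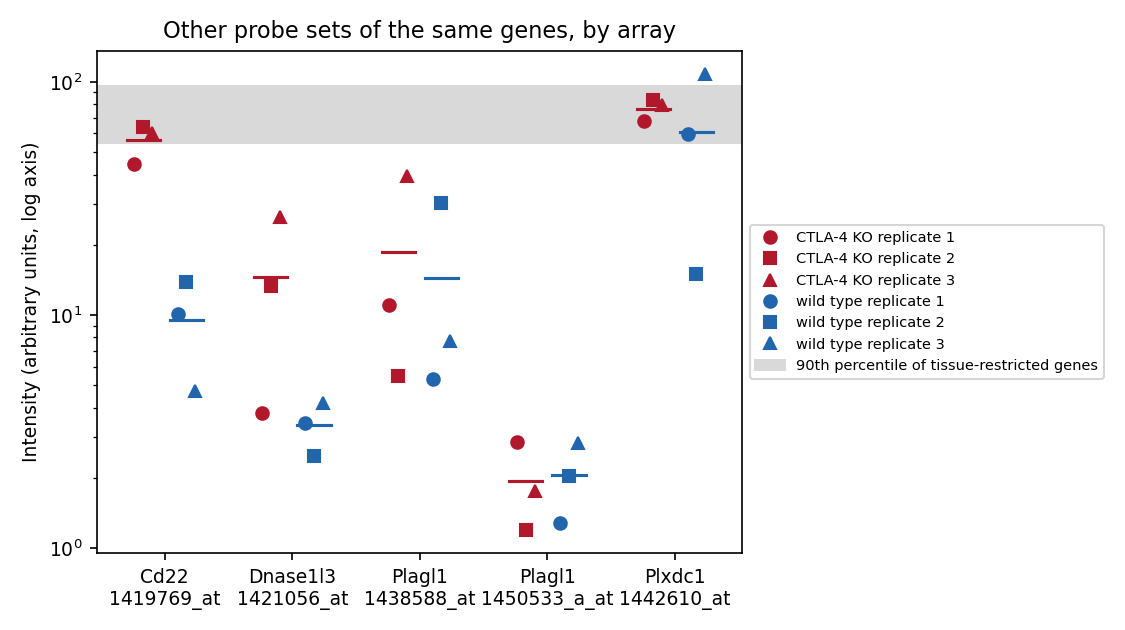
The same plot for the 5 other probe sets of these genes, with intensity on a log axis and the same grey band. The second Cd22 probe set separates the genotypes at 44.2 to 63.7 in CTLA-4 KO and 4.73 to 13.8 in wild type, and the values of the others overlap between genotypes.

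In all, 7 of the 11 probe sets passed the filter on dim signals and 4 did not. Of the 11, 6 were called higher by limma, where 0.785% of the kept probe sets were called higher and 1.25% in either direction. A probe set could pass on its CTLA-4 KO values alone, as that of Dnase1l3 did. Every CTLA-4 KO array lay above every wild type array in 7 of the 11 probe sets, where 6.99% of all probe sets in the table did. For the brightest probe sets this held in 6 of 6 genes, where it held in 12.2% of 11990 tested genes, and 6 of 6 passed an adjusted p of 0.05 as higher, where 1.19% of tested genes did. Since the genes were picked on this contrast, nothing is read from these counts. Among the 143 genes called higher, ordered by log2 difference, Dnase1l3 was in place 3, Cebpa in 6, Plagl1 in 7, Cnga1 in 8, Cd22 in 10 and Plxdc1 in 14, and Esco2, just after Plxdc1, had 1.80. With replicate number as a block all 6 were still called, where 5.48% of tested genes were called higher. Cnga1 was not called in fits without CTLA-4 KO replicate 1, 2 or 3 or wild type replicate 1 or 3 (log2 difference 2.16, 2.07, 1.82, 1.82 and 1.69), and Plagl1 was not called without CTLA-4 KO replicate 2 or wild type replicate 3 (2.10 and 2.06). The Actb ratio was 0.544 to 0.691 in CTLA-4 KO arrays and 0.41 to 0.584 in wild type arrays, overlapping between genotypes. With it as a term 0 of 6 were called, where 0.0334% of tested genes were called higher, while the log2 differences were 1.77 ± 0.26 for Cd22, 2.19 ± 0.34 for Cebpa, 2.15 ± 0.42 for Plagl1, 2.40 ± 0.44 for Dnase1l3, 2.59 ± 0.50 for Cnga1 and 1.66 ± 0.25 for Plxdc1.

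The 6 genes differed in whether pair 2 had the smallest or the largest difference of the replicate pairs. This is a description: the share of all genes with either order was not taken, and the Cd22 pairs lay close together. In Cebpa, Plagl1 and Cnga1 pair 2, the female one, had the smallest log2 difference, at 1.62, 1.44 and 0.87, against 2.52, 2.21 and 2.11 in pair 1 and 2.21, 2.50 and 3.07 in pair 3. In these genes wild type array 2 was the highest wild type array, at 101, 106.5 and 99.9. In Cd22, Dnase1l3 and Plxdc1 pair 2 had the largest difference, at 2.08, 3.48 and 2.14, against 1.88, 2.29 and 1.72 in pair 1 and 1.95, 2.73 and 1.58 in pair 3. CTLA-4 KO array 1 was the lowest CTLA-4 KO array for 5 of the 6 genes, Plxdc1 being the exception. With 1 female pair, sex and the other properties of pair 2 cannot be told apart, and without that pair in either genotype the log2 differences were 2.36 for Cebpa, 2.36 for Plagl1, 2.59 for Cnga1, 1.91 for Cd22, 2.51 for Dnase1l3 and 1.65 for Plxdc1. In that fit Dnase1l3 and Plagl1 were not called and the other 4 were.

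**Figure D3:**
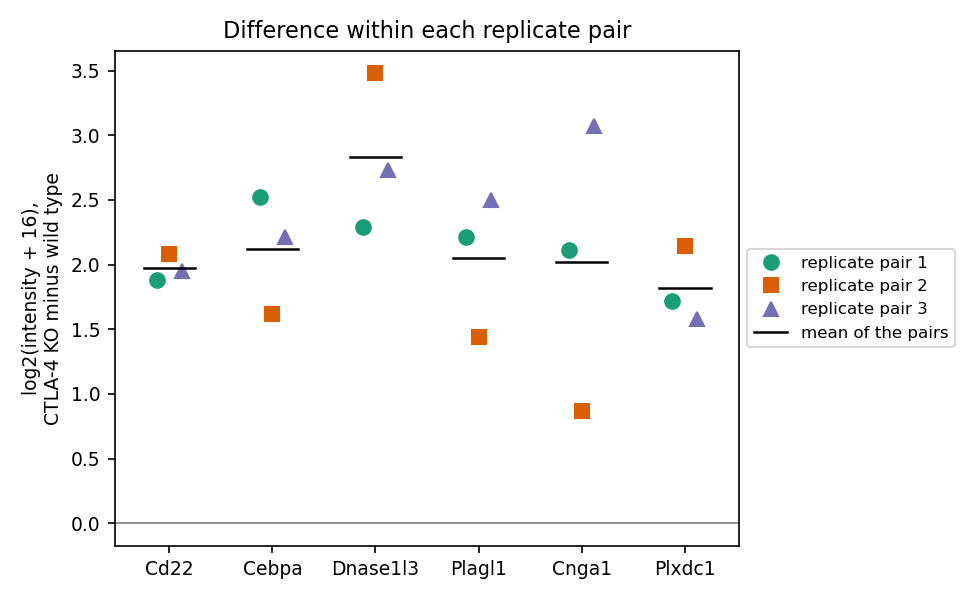
CTLA-4 KO minus wild type difference on the log2(intensity + 16) scale within replicate pairs 1, 2 and 3 (shapes) for the brightest probe set of each gene, with a line at the mean. Pair 2 is the lowest point for Cebpa, Plagl1 and Cnga1 (1.62, 1.44 and 0.87) and the highest for Cd22, Dnase1l3 and Plxdc1 (2.08, 3.48 and 2.14).

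The cells in which these genes are best known were then looked for through lists of their markers. No B cell marker was called in either direction among 8 tested of 18 with a probe set, where 1.69% of all 11990 tested genes were. In lists this short 0 calls are near that share, and nothing is read from them here or below. The list had a median log2 difference of −0.19, against 0.002 over all tested genes. Cd79a, a subunit of the B cell receptor complex, had 1.74, 5.38 and 13.2 in CTLA-4 KO and 4.41, 9.33 and 25.7 in wild type. Ms4a1, which encodes CD20, had 28.7, 59.7 and 71.5 in CTLA-4 KO and 37.0, 44.6 and 111.5 in wild type, and Pax5, the B cell lineage factor, had 2.30, 24.1 and 34.8 in CTLA-4 KO and 48.7, 44.5 and 46.6 in wild type. Cd79b, the other subunit, lay above the bar in all 6 arrays, at 78.0, 108.5 and 88.1 in CTLA-4 KO and 100.5, 110.9 and 117.9 in wild type (limma adjusted p = 0.646). Cd72, an inhibitory receptor of B cells, had 80.1, 72.6 and 93.5 in CTLA-4 KO and 101, 107.3 and 128.5 in wild type (limma adjusted p = 0.422). Cd79a and Pax5 were under the bar in every array, and Ms4a1 was over it in wild type array 3 alone, so the list holds markers at background and markers above it. The part of host B cells in the Cd22 difference was not tested. The brightest of the list was Ighm, the heavy chain gene of IgM, at 10709 ± 218 in CTLA-4 KO and 9607 ± 1370 in wild type (limma adjusted p = 0.493). Bank1, a scaffold protein of B cells, had 201.6 ± 2.39 in CTLA-4 KO and 350.8 ± 33.2 in wild type (limma adjusted p = 0.0504, and 0.01 in the blocked fit, by which it was lower). The summed intensity of the 18 B cell markers was 11272 to 11770 in CTLA-4 KO and 9752 to 12154 in wild type. Ighm alone made up most of this sum in every array, and 3 of the 18 markers had a higher mean in CTLA-4 KO. Of 5 tested plasma cell genes none was called, with a median of 0.12, yet the summed intensity of the 7 with a probe set was 12362 to 13213 in CTLA-4 KO and 10143 to 11842 in wild type, with no overlap. Most of that sum came from Xbp1, a factor of secretory cells that T cells also express, at 7671 ± 403 in CTLA-4 KO and 6232 ± 269 in wild type, and Irf4, at 4580 ± 641 and 4224 ± 805, and its part in the Cd22 difference was not tested. Jchain, the joining chain of secreted antibody, had 42.3 ± 22.9 in CTLA-4 KO and 60.4 ± 28.1 in wild type, and Sdc1, which marks these cells, had 51.9 ± 13.9 in CTLA-4 KO and 23.6 ± 11.5 in wild type.

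Myeloid markers were also not called, with 0 of 11 tested of 21 with a probe set, where 1.69% of all tested genes were. The list had a median log2 difference of −0.08. Lyz2, the lysozyme of macrophages and neutrophils, had 4.70, 27.1 and 58.7 in CTLA-4 KO and 87.9, 35.8 and 49.7 in wild type, and Csf1r, the receptor for macrophage colony-stimulating factor, had 122.9 ± 36.6 in CTLA-4 KO and 130.2 ± 9.89 in wild type. Spi1, the myeloid and B cell factor PU.1, had 101.8 ± 6.33 in CTLA-4 KO and 122.7 ± 36.2 in wild type. The smallest p among them was that of Cd68, a lysosomal protein of macrophages, at 131.9 ± 6.20 in CTLA-4 KO and 83.1 ± 22.5 in wild type (limma adjusted p = 0.244). Cybb, a subunit of the phagocyte oxidase, came next, at 91.6, 98.4 and 108.9 in CTLA-4 KO and 84.2, 57.8 and 69.9 in wild type (limma adjusted p = 0.398). Neither Cd68 nor Cybb overlapped between genotypes, which held with CTLA-4 KO higher in 12.2% of all tested genes. Of the 21 genes 8 had a higher mean in CTLA-4 KO. Summed over the list, intensity was 839.7 to 1257 in CTLA-4 KO and 997.3 to 1071 in wild type. Of 8 tested dendritic cell genes none was called, with a median of −0.02. Zbtb46, a factor of conventional dendritic cells, had the smallest p of that list, at 56.6 ± 6.10 in CTLA-4 KO and 90 ± 17.7 in wild type (limma adjusted p = 0.309). Itgax, which encodes CD11c, had 53.6 ± 7.44 in CTLA-4 KO and 70.7 ± 4.25 in wild type, and Flt3 had 17.8 ± 8.49 and 11.6 ± 4.96 in the same order of genotypes. Zbtb46 and Itgax did not overlap between genotypes either, with CTLA-4 KO lower in each. Summed over the dendritic list, intensity was 639.4 to 748.7 in CTLA-4 KO and 534.4 to 1001 in wild type. The sums of the B cell, myeloid and dendritic lists each overlapped between genotypes, the B cell sum being mostly Ighm. The part of myeloid and dendritic cells in the Cebpa and Dnase1l3 differences was not tested.

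For Plxdc1 and Cnga1 the same was asked of vessels and of rods. Of 5 tested endothelial markers none was called, where 1.69% of all tested genes were. The list had a median of −0.07, and summed intensity was 451.1 to 599.8 in CTLA-4 KO and 548 to 774 in wild type. Cdh5, the cadherin of endothelial junctions, had 17.6 ± 5.89 in CTLA-4 KO and 28.1 ± 20.1 in wild type, and Kdr, a receptor for vascular endothelial growth factor, had 22.6 ± 9.37 in CTLA-4 KO and 65.6 ± 8.40 in wild type (limma adjusted p = 0.1, and 0.0401 in the blocked fit, by which it was lower). Pecam1, an adhesion protein of vessels and leukocytes, had 214.4 ± 27.8 in CTLA-4 KO and 267.7 ± 19.2 in wild type (limma adjusted p = 0.427). Of 6 tested rod genes none was called, and all 6 differences were below 0, with a median of −0.21. Sag, the arrestin of rods, had 70.4 ± 19.9 in CTLA-4 KO and 126.9 ± 20.5 in wild type (limma adjusted p = 0.169). Markers of CD8 T cells and NK cells gave 0 calls among 4 tested genes, but all 4 differences were above 0, with a median of 0.25. Klrd1, the NK receptor chain CD94, had 275.8, 273.4 and 280.8 in CTLA-4 KO and 66.0, 211.7 and 260.8 in wild type (limma adjusted p = 0.361). Wild type array 1 was the lowest, and the genotypes did not overlap, as with CTLA-4 KO higher in 12.2% of all tested genes. The summed intensity of that list was 652 to 855.3 in CTLA-4 KO and 369.2 to 777.7 in wild type, and its part in the differences of the 6 genes was not tested. Stromal markers and erythroid and platelet markers gave 0 calls among 2 and 1 tested genes, with medians of −0.28 and −0.18. Col1a2, a collagen chain, had 74.4 ± 4.54 in CTLA-4 KO and 98.9 ± 15.6 in wild type, and the platelet integrin gene Itga2b had 117.4 ± 20.7 and 139.3 ± 47.2. Kdr, Pecam1, Sag and Col1a2 did not overlap between genotypes either, with CTLA-4 KO lower in each.

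Relatives and partners of the 6 genes gave 0 calls as well, among 36 tested genes with a median log2 difference of −0.07, where 1.69% of all tested genes were called. The 4 tested relatives of Cebpa had a median of 0.20. Ddit3, the stress-induced C/EBP relative CHOP, had 367.3 ± 50.1 in CTLA-4 KO and 457.2 ± 65.0 in wild type (limma adjusted p = 0.42). Cebpb had 68.2 ± 32.6 in CTLA-4 KO and 52.4 ± 11.1 in wild type, Cebpd 107 ± 13.4 and 83.3 ± 34.8, and Cebpg, the neighbour of Cebpa on chromosome 7, 1715 ± 178 and 1510 ± 64.1, with limma adjusted p of 0.787, 0.568 and 0.5. Genes that C/EBP-alpha activates in myeloid cells had a median of −0.05 over 6 tested, among them Lyz2 above, Il6ra at 3395 ± 259 in CTLA-4 KO and 3052 ± 529 in wild type, Csf3r at 48.1 ± 23.4 in CTLA-4 KO and 35.1 ± 23.2 in wild type and Mpo at 41.7 ± 20.4 and 39.3 ± 7.71. Other Siglec genes were dim, and 1 of 7, Siglech, passed the filter (log2 difference 0.33 ± 0.46).

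Partners of CD22 include genes that T cells use as well. Ptpn6, which encodes SHP-1, had 7057 ± 858 in CTLA-4 KO and 8294 ± 1220 in wild type (limma adjusted p = 0.429). Cmah, which makes the sialic acid form that mouse CD22 prefers, had 1804 ± 75.5 in CTLA-4 KO and 2195 ± 129 in wild type (limma adjusted p = 0.225). The adaptor gene Grb2 had 2537 ± 46.9 in CTLA-4 KO and 2217 ± 201 in wild type (limma adjusted p = 0.404). The 9 tested partners had a median of −0.03. St6gal1, the enzyme that makes the sialic acid linkage CD22 binds, had 16538 ± 1790 in CTLA-4 KO and 16501 ± 585 in wild type. Inpp5d, the lipid phosphatase SHIP-1, had 2746 ± 326 in CTLA-4 KO and 1996 ± 100 in wild type (limma adjusted p = 0.0873, and 0.0147 in the blocked fit, by which it was higher).

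Among deoxyribonucleases, Dnase1l1 had 513.4 ± 93.3 in CTLA-4 KO and 522.9 ± 8.06 in wild type, and the lysosomal Dnase2a 467.3 ± 66.2 and 642.6 ± 134 (limma adjusted p = 0.266). Endog, a nuclease of mitochondria, lay the other way, at 985.2 ± 46.3 in CTLA-4 KO and 764 ± 159 in wild type (limma adjusted p = 0.268), and the 5 tested deoxyribonuclease genes had a median of −0.27. Of 6 tested imprinted genes none was called, with a median of −0.11. The smallest p among them was that of Ndn (necdin), at 30.7 ± 19.4 in CTLA-4 KO and 51.8 ± 7.74 in wild type (limma adjusted p = 0.437), and Plagl2, the closest tested relative of Plagl1, had 1099 ± 200 in CTLA-4 KO and 1129 ± 40.3 in wild type. Cngb1, the beta subunit that forms the rod channel with Cnga1, had 55.5 ± 23.3 in CTLA-4 KO and 62.5 ± 35.6 in wild type. Hcn2, a related channel gated by voltage and cyclic nucleotides, had 47.7 ± 32.8 in CTLA-4 KO and 61.1 ± 13 in wild type. Plxdc2, the paralogue of Plxdc1, had 161.3 ± 55.7 in CTLA-4 KO and 247.4 ± 62.1 in wild type (log2 difference −0.59 ± 0.26, limma adjusted p = 0.308). Antxr1, known as tumour endothelial marker 8, had 72.4 ± 2.42 in CTLA-4 KO and 110.5 ± 32.5 in wild type (limma adjusted p = 0.389). The summed intensity of the 6 tumour endothelial marker genes other than Plxdc1 was 229.4 to 324.6 in CTLA-4 KO and 385.6 to 437.5 in wild type, with no overlap. Plxdc2 and Antxr1 made up most of this sum in every array, and each alone overlapped between genotypes. The others of the list fell below the filter on dim signals. Over all marker and family lists, 0 of 92 tested genes passed in limma, where 1.69% of tested genes did, and 15 of 92 had an unadjusted p under 0.05, where 16.5% of tested genes did. With the replicate block 8 of 92 were called, Inpp5d, Xbp1 and Lat higher and Bank1, Kdr, Cd3g, Cd6 and Cd28 lower, where 5.48% of tested genes were called higher and 3.44% lower.

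**Figure D4:**
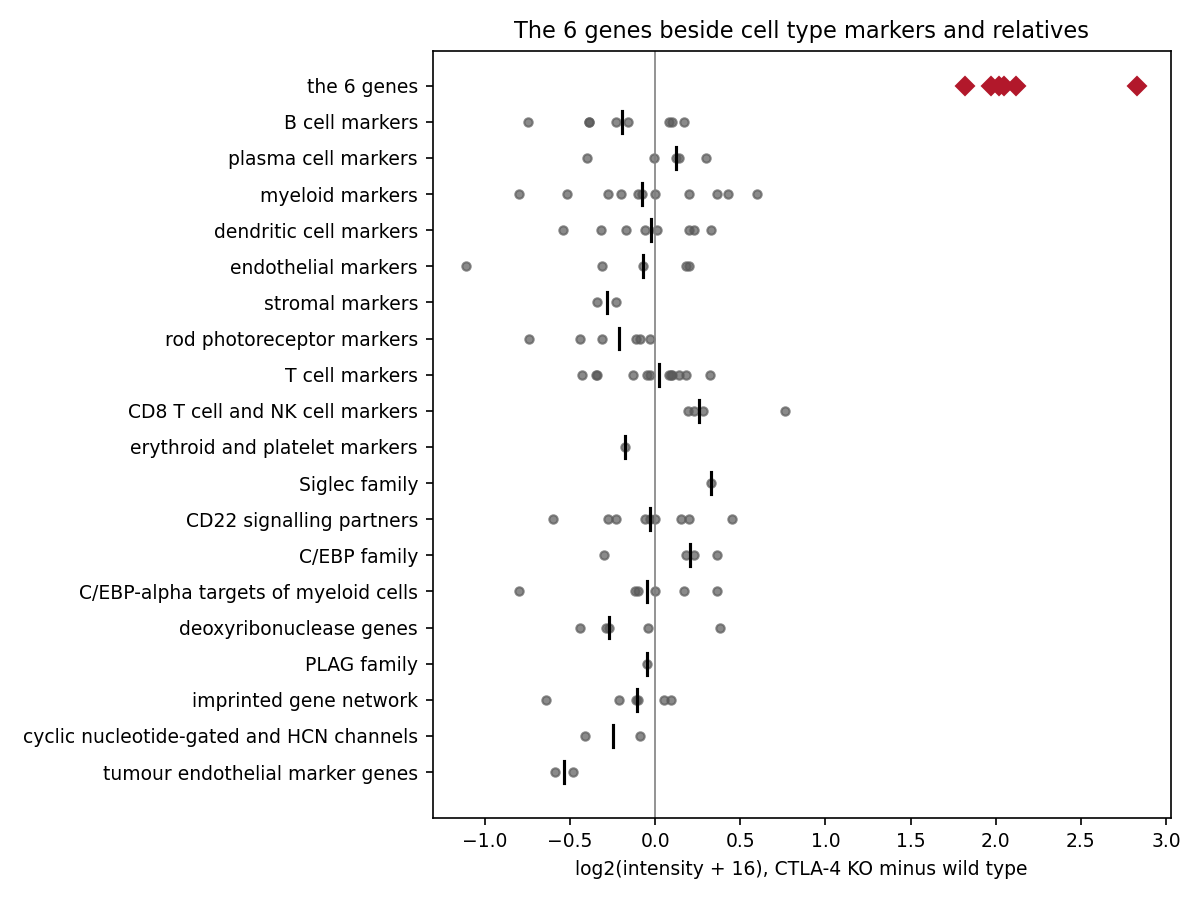
CTLA-4 KO minus wild type difference on the log2(intensity + 16) scale for the 6 genes (red diamonds, 1.82 to 2.83) and for each tested gene of 19 lists of cell type markers, relatives and partners (grey points, with a black line at each list's median). The list genes lie between −1.11 (Kdr) and 0.76 (Klrd1).

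The 6 genes lie on chromosomes 5, 7, 10, 11 and 14, and Cd22 and Cebpa share chromosome 7. The nearest tested gene on each side of each gene in RefSeq order was read as well. None of these 12 neighbours was called by limma, where 1.69% of all tested genes were. Their log2 differences spanned −0.59 to 0.39 with a median of 0.00. With the replicate block 1 was called higher, where 5.48% of tested genes were called higher and 3.44% lower. It was Sf3b5 beside Plagl1, at 2098 ± 85.7 in CTLA-4 KO and 1603 ± 173 in wild type (limma adjusted p = 0.129, and 0.0293 in the blocked fit). Among so few genes these counts are near those shares, and nothing is read from them. Mag, a Siglec gene next to Cd22 that is best known from myelin, was under the filter but did not overlap between genotypes, with 21.2, 19.5 and 21.3 in CTLA-4 KO and 7.64, 6.94 and 9.06 in wild type. All of these Mag values were far under the bar for background.

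Among genes other than the 6, those with the most similar pattern were found by the root mean square difference between log2 profiles over the 6 arrays, each centred on its mean, which also counts the size of the genotype difference. Clone and predicted gene names were passed over, so the nearest genes below are the nearest among the remaining tested genes. For Cd22 the nearest was Myo1f, a myosin of leukocytes, at 0.117, with 1231, 1351 and 1604 in CTLA-4 KO and 254.4, 333.4 and 457.6 in wild type, and then the calcium release channel gene Ryr1 at 0.230. For Cebpa they were Myo1f at 0.314 and Gadd45b, a stress-response gene, at 0.335, and for Plagl1 they were Ryr1 at 0.274 and Myo1f at 0.313. For Cnga1 the nearest was Il1r1, the receptor for interleukin-1, at 0.300, which also had its highest wild type value in array 2 (174.1), followed by Ryr1 at 0.470. Dnase1l3 had no close match, with Lgals3 (galectin-3) at 0.491 and Gzmb (granzyme B) at 0.505. Plxdc1 was nearest to a pair of cell division genes, Esco2, a cohesin acetyltransferase, at 0.237 and Ube2c, which attaches ubiquitin to mitotic proteins, at 0.239. Esco2 had 195.2, 183.2 and 160.7 in CTLA-4 KO and 63.5, 26.2 and 36.3 in wild type. Among the 6 themselves Cebpa and Plagl1 were closest, at 0.246, nearer than either was to the genes just named. Cd22 lay at 0.287 from Plxdc1, 0.306 from Plagl1 and 0.328 from Cebpa, further than from its own nearest genes Myo1f and Ryr1. For Plagl1, Cd22 was still nearer than Myo1f, and for Cebpa it was nearer than Gadd45b. Cnga1 lay at 0.358 from Plagl1 and 0.387 from Cebpa, further than from Il1r1 and nearer than from Ryr1. Dnase1l3 and Cnga1 were furthest apart, at 0.814.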

How the data were processed

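Total RNA was isolated with Trizol, and 2 µg of it went into biotinylated cRNA, per the labels' protocols. The deposited values are linear intensities, 1 for each of 45101 probe sets on each array. Partek and MAS5 are named, without versions, in the submitters' processing notes, and the trimmed mean of every array (2% off each end) was 500.003, so scaling preceded deposit.

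Groups and replicate numbers came from sample titles. Intensities were turned into log2(intensity + 16), 64 AFFX control probe sets were left out, and probe sets were kept where their mean log2 value reached the 40th percentile (35.4 in intensity), leaving 27022. Genotypes were compared by limma 3.58.1 in R 4.3.3 (intensity trend, no block, both directions, Benjamini-Hochberg over kept probe sets, threshold 0.05), and checked on simulated data. Titles say "biological rep" but no label says that each came from its own animal, so p-values measure the spread between these samples. Deviations from group means of same-numbered arrays correlated at 0.371, 0.24 and 0.254, so the numbers were taken as pairs and used as a replicate block in an alternative.

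An annotation table gave 1 gene for 34958 probe sets. Symbols were updated through gene IDs to RefSeq (GRCm38.p6, 34754 matched). The files name no build, so gene coordinates are not given apart from the RefSeq windows. A gene was represented by its kept probe set with the highest mean. Of 20 lists with 231 genes, 10 hold cell type markers, 9 relatives or partners and 1 tissue-restricted genes. By rule, the genes named were all probe sets of the 6, from each cell type, relative or partner list between 1 and 4 genes in order of smallest p and the defining markers, and for each of the 6 the 2 most similar genes that are not among the 6. Clone and predicted gene names were passed over in the search for similar genes. Mag, Sdc1, Afp, Sf3b5, Mpo, Dnase1l1, St6gal1 and Rbp3 lie outside this rule and were picked with their values known. The 6 genes and the lists were chosen with earlier results of these data known. Alternatives were the filter, the added constant, normalization, trend, array weights, the replicate block, the Actb ratio as a term, averaging of a gene's probe sets and leaving out arrays.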

Additional observations from a re-analysis of the deposited data

How the results depend on the processing

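Under every alternative run, the log2 differences of all 6 genes stayed positive. The number of the 6 called lay between 4 and 6 under all alternatives but the Actb ratio as a term, where 0 were called and 21 probe sets in all. Plagl1 and Cnga1 lost their calls with no filter and without the intensity trend, Plagl1 and Dnase1l3 without pair 2, and Cnga1 with 1 added in place of 16. The 339 called probe sets became 111 with no filter on dim probe sets, 20 without the intensity trend, 521 with array weights, 46 without pair 2 and 2341 with the replicate block, and 62 to 217 when 1 array was left out. Leaving out 1 array called 4 to 6 of the 6 genes. With the replicate block 44.6% of calls were higher, against 62.5% without it and 73.5% after median centring (338 of 460 calls). Of the marker and family genes, where 0 were called, 8 were called with the replicate block, 2 when probe sets were averaged by gene (Bank1 lower, Inpp5d higher), and 1 each with the filter at the 60th percentile (Bank1), quantile normalization (Cd28) and array weights (Bank1), and 0 when any 1 array was left out. Cnga1 and Dnase1l3 fell under the filter at the 60th percentile and have no value there. The causes of these shifts were not tested. Signal near background limits the wild type values of Dnase1l3, and of Cebpa, Plagl1, Cnga1 and Plxdc1 in most arrays.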
